A study of Homo sapiens with 40 samples.

Results

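The genes described here encode enzymes that take amino acids apart: IDO1, KYNU and AADAT for tryptophan, AASS and again AADAT for lysine, PRODH for proline, GLDC for glycine and TDH for threonine. These 7 genes were chosen by symbol, with earlier results of the same arrays known in which IDO1 and AASS were among the genes lowest after OCT4 knockdown. Of the 7, 6 had at least one probe that the platform annotation assigned to them, 12 probes in all of the 47323 measured. TDH had none in that annotation and is not analysed here. All 6 genes had a probe that passed the filter on low intensity, among 13544 genes tested, although KYNU passed it barely, as described below.

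The cells were the human embryonic stem cell lines H1 and H9, grown without feeder cells on Matrigel in mTeSR medium. H1 cultures received lentivirus with polybrene: a control virus (labelled H1P) or one expressing an shRNA, a hairpin that silences its matching messenger RNA, directed at OCT4, at NANOG or at SOX2. H9 cultures received the OCT4 shRNA virus, with no control arm of that line. RNA was taken on each of days 0 to 7, 1 array for each day and arm, 40 arrays in all, of which 39 were used: the day 7 array of the NANOG arm is on another scale and was left out. No day was repeated within an arm, so the days of a window (0 and 1, 2 and 3, 4 to 7) stood in for replicates, and each arm is 1 time course. Each p-value therefore measures the scatter between days of single cultures, and any trend within a window adds to that scatter.

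IDO1 opens the ring of tryptophan and so starts the kynurenine pathway, best known for restraining T cells and strongly switched on by interferon gamma. KYNU cleaves kynurenines further down, and AADAT moves the amino group of kynurenine and, in lysine breakdown, of aminoadipate. AASS carries out the first steps of the saccharopine route of lysine breakdown in mitochondria. PRODH, in the mitochondrial inner membrane, starts proline breakdown and passes electrons to the respiratory chain. GLDC is the decarboxylating subunit of the glycine cleavage system, which supplies one-carbon units. TDH is highly expressed in mouse embryonic stem cells, where it feeds threonine into glycine, while the human gene is annotated as a transcribed pseudogene.

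Upstream sequences are shown for AASS and GLDC, which were both much lower after OCT4 knockdown, and for KYNU, which stayed near background in every arm. Each is the 250 bases before the annotated start in the RefSeq promoter table (GRCh38.p14), written 5′ to 3′ on the gene's strand. They lie at chr7:122144250-122144499 (minus strand, AASS), chr9:6645730-6645979 (minus strand, GLDC) and chr2:142877414-142877663 (plus strand, KYNU). Capitals mark matches on either strand to the CCAAT box (CCAAT), to the TATA box (written TATAAA here) and to the core of the cAMP response element, which is TGACGT.
AASS: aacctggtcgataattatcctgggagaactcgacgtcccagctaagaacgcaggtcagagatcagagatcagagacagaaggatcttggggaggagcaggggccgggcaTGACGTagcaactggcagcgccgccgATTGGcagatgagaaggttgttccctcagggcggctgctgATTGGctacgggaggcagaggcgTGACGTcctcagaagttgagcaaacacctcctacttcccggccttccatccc
GLDC: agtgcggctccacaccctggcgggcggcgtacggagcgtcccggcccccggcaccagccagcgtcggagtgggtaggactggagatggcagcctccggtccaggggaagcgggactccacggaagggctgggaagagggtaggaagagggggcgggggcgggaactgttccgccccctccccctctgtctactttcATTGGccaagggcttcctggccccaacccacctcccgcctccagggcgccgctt
KYNU: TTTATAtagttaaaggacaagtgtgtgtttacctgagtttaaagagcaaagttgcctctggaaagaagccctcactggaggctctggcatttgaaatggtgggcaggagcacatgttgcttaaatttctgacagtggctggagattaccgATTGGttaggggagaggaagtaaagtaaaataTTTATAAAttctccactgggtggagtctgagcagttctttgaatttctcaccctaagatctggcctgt

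The AASS window held 2 matches to CCAAT and 2 to TGACGT and none to TATAAA. The GLDC window held 1 match to CCAAT and neither of the others, with 4 matches to the GC box GGGCGG (not in capitals) against 1 in AASS. The KYNU window held 1 match to CCAAT and 3 to TATAAA, of which 2 overlap on opposite strands, and no GC box. Over 35116 promoter windows of the same length, 32.0% held CCAAT, 10.7% TATAAA, 7.1% TGACGT and 42.6% GGGCGG. The octamer ATGCAAAT, the motif that names the OCT factors, was in 1.63% of all windows and in none of these 3, which says only that those letters are not in these bases. The AASS and GLDC windows held 14 and 19 CpG dinucleotides and the KYNU window 1, against a median of 11.

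The knockdowns were checked on days 4 to 7, called late days here. The OCT4 gene POU5F1 read 138 to 194 with OCT4 shRNA in H1 cells against 6130 to 7529 in the control, but 422 to 1054 in H9 cells. NANOG read 139 to 170 with its own shRNA and 129 to 168 with OCT4 shRNA in H1 cells, against 393 to 548 in the control. SOX2 read 1053 to 1404 with its own shRNA against 3658 to 5471 in the control. With OCT4 shRNA, SOX2 read 279 to 1106 in H1 cells and 6724 to 8082 in H9 cells. The OCT4 arm in H1 was thus low in NANOG and SOX2 as well, and is not a loss of OCT4 alone. With NANOG shRNA, POU5F1 read 2023 to 4146, a log2 difference from control of -1.18 ± 0.28. The NANOG arm is therefore not a loss of NANOG alone either. The summed intensity of 7 measured pluripotency markers was 43727 to 49721 in late control arrays, 6451 to 21880 with OCT4 shRNA in H1, 29016 to 36368 with NANOG shRNA, 32903 to 35203 with SOX2 shRNA and 29762 to 35636 with OCT4 shRNA in H9. With OCT4 shRNA in H1 cells 8 fibroblast markers summed to 6474 to 27866 against 5717 to 8148 in the control, with COL3A1, LUM and DCN above background on every late array only in that arm among the 5. The markers did not all go one way there. Of 7 tested, 5 were called higher and 1 lower, each at least 2-fold, where 23.7% and 24.2% of all genes were called higher and lower. FAP was below background on every late array of that arm. Of the cell types in which these enzymes are best known, 9 hepatocyte markers summed to 1189 to 1358 and 8 macrophage markers to 1394 to 1631 over the late arrays of all 5 arms, with TTR, APOA2 and TYROBP below background and ALB, CD68 and AIF1 above it on every late array of every arm. The syncytiotrophoblast list, 8 genes, summed to 1269 to 1768. The part of changing cell makeup in the results below was not tested, and fewer cells of a type and less RNA per cell cannot be told apart in such bulk samples.

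With OCT4 shRNA, IDO1 had the earliest and one of the deepest differences of the set. Levels are probe intensities, and a probe counted as above background when it read over 145. That is the 99th percentile of 437 olfactory receptor probes as estimated from their median and spread, assuming a normal distribution. In the control, IDO1 read 542, 695, 992, 776, 916, 1006, 1088 and 1090 on days 0 to 7. The OCT4 arm in H1 read 544, 325, 247, 153, 120, 114, 120 and 118. The arms started level, differed by more than 2-fold on day 1, and from day 4 on the knocked-down arm was below background on all 4 arrays, while the control read 2.11-fold higher on day 7 than on day 0. Because those late readings are only a limit, IDO1 is best given as at least 10.2-fold lower than control on the late days (the control's mean log2 level 9.93 against the background level of 6.57).

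With NANOG shRNA, IDO1 read 588, 664, 779, 768, 588, 300 and 185 on days 0 to 6. It stayed near the control to day 3 and was more than 2-fold below it on days 5 and 6. With SOX2 shRNA it read 409, 444, 530, 563, 471, 386, 447 and 436, a flat course in which no late array reached the lowest late control array, 916. Mean log2 levels on the late days were ordered as control (9.93 ± 0.12, SD, n = 4), SOX2 shRNA (8.58 ± 0.14, n = 4), NANOG shRNA (8.04 ± 1.00, n = 3), OCT4 shRNA in H9 (6.97 ± 0.53, n = 4) and OCT4 shRNA in H1 (6.09 ± 0.06, n = 4, below background). In that order the SOX2 and NANOG arms overlapped, as did the NANOG and H9 arms. Fitted log2 differences from control were -1.89 ± 0.29 with NANOG shRNA and -1.34 ± 0.27 with SOX2 shRNA, and -1.60 and -1.25 by a second IDO1 probe, which was also below background on 4 of 4 late OCT4 arrays in H1.

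The next enzymes of the tryptophan route did not follow IDO1. KYNU read 119 to 153 over all 39 arrays and was above background on 4 of them, in 4 different arms, and its second probe was above it on 0 of 39. Its fitted late differences from control were 0.04, -0.04 and -0.06 (log2, SE 0.10 each), which bears on a probe near its floor. AADAT was moderate and slightly higher in some arms. On the late days it read 257 to 304 in the control, 336 to 398 with OCT4 shRNA, 362 to 473 with NANOG shRNA and 276 to 335 with SOX2 shRNA. Neither the OCT4 nor the NANOG arm overlapped the control. Of 3 other AADAT probes, 2 were below background on every array, and the third (median 149) differed from control by 0.06 and 0.05 where the brighter probe differed by 0.53 and 0.69, so the higher reading rests on 1 probe.

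AASS, the lysine enzyme, had the deepest measured difference of the set. The control read 2169, 2216, 2745, 3511, 4037, 3549, 2617 and 3991 on days 0 to 7. With OCT4 shRNA in H1, AASS read 1846, 1929, 1676, 781, 340, 179, 180 and 174. The level held for 3 days and then dropped, so that the last 3 arrays lay just above background. The fitted late difference was -4.46 ± 0.31 on the log2 scale (SE, limma), a 22.0-fold lower level, with 174 to 340 against 2617 to 4037. With NANOG shRNA the readings were 1943, 1457, 1612, 2044, 1846, 1154 and 797, below the control on each of the 7 days, and the late difference was -1.60 ± 0.34. With SOX2 shRNA they were 1857, 1816, 2560, 2718, 3210, 2474, 1980 and 1860, also below the control on each of the 8 days. Like the control, the SOX2 arm was highest on day 4, but it lacked the control's return on day 7. The SOX2 late difference of -0.60 ± 0.31 was not called, and the arms overlapped. It was called when arrays were weighted by quality (-0.66). The second AASS probe gave -3.71, -1.74 and -0.81 for the 3 knockdowns.

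**Figure D1:**
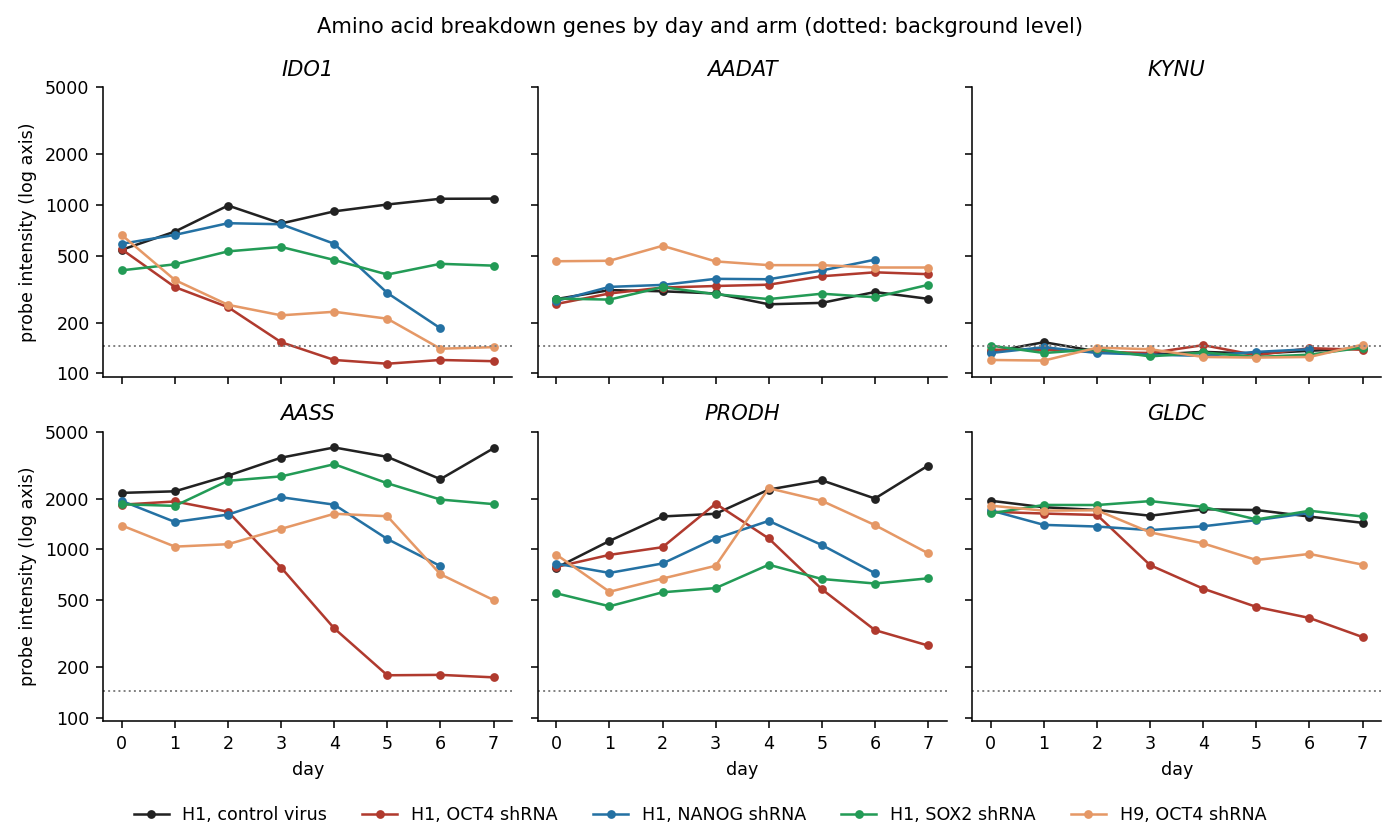
Intensity of the representative probe of each measured gene (log axis) by day in the 5 arms, 1 array per point; the dotted line is the background level of 145. With OCT4 shRNA in H1 cells IDO1 reached background, AASS came close to it at 174, and KYNU lay at background in all arms.

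PRODH was highest on day 3 or 4 in every knockdown arm, though with SOX2 shRNA only 1.53-fold above its own day 0. The control read 779, 1124, 1571, 1630, 2269, 2576, 2008 and 3148, a 4.26-fold higher reading on day 7 than on day 0. The OCT4 arm in H1 read 788, 929, 1032, 1871, 1163, 581, 332 and 269. That arm peaked on day 3, 2.46-fold above its own day 0 and slightly above the control of that day, and was 8.28-fold lower by day 7. With NANOG shRNA the readings were 824, 726, 826, 1161, 1479, 1063 and 723, a peak on day 4. With SOX2 shRNA they were 549, 460, 557, 590, 812, 668, 628 and 674, so that the gain seen in the control was small in that arm. Late log2 differences from control were -2.46 ± 0.32 with OCT4 shRNA, -1.28 ± 0.35 with NANOG shRNA and -1.91 ± 0.32 with SOX2 shRNA, with no overlap with the control in any of the 3. RefSeq lists a pseudogene copy, PRODHLP, on the same chromosome, 22, and one of GLDC, GLDCP1, on chromosome 4. How far the single probes of PRODH and GLDC also read those copies was not tested.

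The PRODH call with NANOG shRNA depended on single days. Without day 5 in every arm it was lost at the same log2 difference of -1.28, as it was without day 6 in every arm (-1.11) or without the day 6 NANOG array alone (-1.01). Without day 7, which the NANOG arm lacks, the difference was -1.16.

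GLDC was lower with OCT4 shRNA and close to control with the other hairpins. Its control readings were 1947, 1782, 1716, 1587, 1734, 1716, 1569 and 1440. The OCT4 arm in H1 read 1676, 1635, 1603, 807, 585, 456, 392 and 302, a level held to day 2 and lower on each day after. All later readings were below any control reading. The late difference was -2.08 ± 0.17 with OCT4 shRNA, -0.10 ± 0.18 with NANOG shRNA (1303 to 1706 over 7 days) and 0.03 ± 0.17 with SOX2 shRNA (1508 to 1938 over 8 days). The late OCT4 mean of 8.53 ± 0.46 (log2, SD, n = 4) stood apart from the control (10.61 ± 0.13), SOX2 (10.63 ± 0.12) and NANOG (10.50 ± 0.14, n = 3) arms, which overlapped.

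Counted together, 5 of 6 measured members were called at a Benjamini-Hochberg adjusted p under 0.05 with OCT4 shRNA, where 47.8% of all genes were called. Of these 4 were lower (24.2% of all genes) and 1 higher (23.7%). With NANOG shRNA 4 of 6 were called (15.3% of all genes), 3 of them lower (7.48%), and with SOX2 shRNA 2 of 6 (8.21%), both lower (4.67%). All called-lower members were at least 2-fold lower: 4 of 6 with OCT4 shRNA against 4.86% of all genes, 3 of 6 with NANOG shRNA against 1.11% and 2 of 6 with SOX2 shRNA against 0.487%. Median log2 differences of the 6 were -2.27, -0.69 and -0.33 against 0.0 for all genes, and with values below background set to their limit -2.27, -0.69 and -0.30. The members were chosen with these contrasts known and the 3 share 1 control arm, so nothing is read from these counts. For the same reason the contrasts below that contain the late knockdown arrays of H1 are given with their error and their calls as a description, without p-values. Members' p-values printed for other contrasts come after the same choice of genes, so they too are descriptions.

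The order in which the genes parted from control differed between hairpins. With OCT4 shRNA, IDO1 was at least 2-fold below the same day's control array from day 1 on, and AASS and GLDC from day 3. PRODH was 1.99-fold below it on day 4 and more than 2-fold below it from day 5. With NANOG shRNA, AASS was first, from day 4, and IDO1 and PRODH followed on day 5. With SOX2 shRNA, PRODH was first, from day 1, then IDO1 from day 4, and AASS only on day 7. These days are those of the representative probe, and second probes moved some of them. The second AASS probe was 2-fold below from day 2 with NANOG shRNA (-1.11), and on days 5 and 7 with SOX2 shRNA (-1.23 on each). The second IDO1 probe with SOX2 shRNA was at -0.73 on day 4 and 2-fold below from day 5. Each day is 1 pair of arrays with no error of its own. On days 2 and 3 with OCT4 shRNA, the fit called IDO1 (-2.54 ± 0.38, adjusted p = 7.52e-05, limma) and AASS (-1.49 ± 0.44, adjusted p = 0.0421), 2 of 6 members where 5.21% of genes were called. The members were chosen with results of the same arrays known, so these calls are a description. PRODH (-0.21 ± 0.45) and GLDC (-0.56 ± 0.24) were not called, though GLDC was without day 2 (-1.02, adjusted p = 0.0435).

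The early calls are fragile. Without day 3, IDO1 (-2.26, adjusted p = 0.14) and AASS (-0.73, adjusted p = 0.999) were both lost in limma's fit. AASS was also lost without day 0 or without day 1 (adjusted p = 0.0717 in each), without day 5 (0.0641), with the smaller background offset of 16 (0.0627) and with no intensity filter (0.0529). With NANOG shRNA no member was called on days 2 and 3 (3.92% of genes called, 2408 genes and 0 members at an unadjusted p under 0.05). With SOX2 shRNA none was called either (0.406% of genes, 1162 genes and 1 member at an unadjusted p under 0.05). That member was PRODH, at -1.57, which was called with day as a block (adjusted p = 0.0328), with array weights (0.00154), without day 4 (0.0207) or without the day 4 OCT4 array (0.0357), in limma. PRODH already read 549 with SOX2 shRNA on day 0 against 779 in the control.

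**Figure D2:**
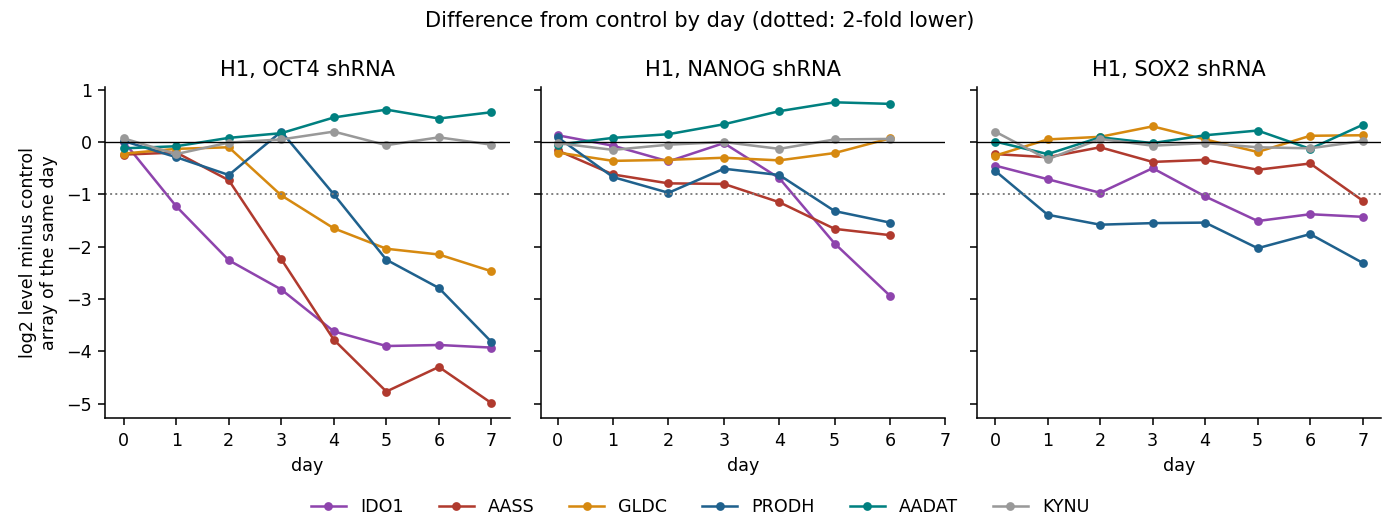
Log2 level of each gene minus the control array of the same day, by day, for the 3 knockdowns in H1 cells, 1 array pair per point; the dotted line marks a 2-fold lower level. IDO1 crossed it on day 1 with OCT4 shRNA and on day 5 with NANOG shRNA, and PRODH on day 1 with SOX2 shRNA.

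Differences between the knockdowns were fitted directly, a contrast in which the control cancels. SOX2 itself was lower with OCT4 shRNA than with SOX2 shRNA (-1.56 ± 0.26), so these contrasts compare hairpins and do not separate the factors. OCT4 shRNA gave lower late levels than NANOG shRNA for AASS (-2.86 ± 0.34), GLDC (-1.97 ± 0.18), PRODH (-1.18 ± 0.35) and IDO1, at least 2.77-fold, 4 of 6 members where 42.9% of genes were called. The PRODH difference was lost without the day 4 NANOG array (-0.92) and was -0.85 without day 7. Against SOX2 shRNA, OCT4 shRNA gave lower AASS (-3.86 ± 0.31), GLDC (-2.10 ± 0.17) and IDO1, at least 4.04-fold, and higher AADAT (0.39 ± 0.10), also 4 of 6, where 46.9% of genes were called.

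Neither PRODH nor KYNU, the latter near background, was called between OCT4 and SOX2 shRNA over days 4 to 7. For PRODH the difference was -0.55 ± 0.32, and its level in the OCT4 arm ran from 1163 on day 4 to 269 on day 7. Over days 5 to 7 it was called lower with OCT4 shRNA (-0.92), as it was without the day 4 OCT4 array (-1.0) and with array weights (-0.67). NANOG and SOX2 shRNA differed in AADAT, higher with NANOG shRNA (0.55 ± 0.11), and in AASS, lower with NANOG shRNA (-1.0 ± 0.34), 2 of 6 where 18.0% of genes were called. The AASS call was lost in 9 of 37 alternatives. These were the fits without the day 6 NANOG array (-0.69), day 6 in all arms (-0.77), the day 4 SOX2 array (-0.84), day 5 (-0.94), the NANOG array or the SOX2 array of day 5 (-0.97 in each), day 0 or day 1 (-1.0 in each), and with the smaller offset (-1.02). PRODH (0.63 ± 0.35) and IDO1 (-0.55 ± 0.29) were not called. IDO1 was called without day 4 (-1.02) or the day 4 NANOG array (-1.06), and both were with array weights (IDO1 -0.58, PRODH 0.66).

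Several control readings were higher late than early, without passing the test. From days 0 and 1 to the late days, control PRODH changed by 1.45 ± 0.39 (adjusted p = 0.0811, limma), IDO1 by 0.79 ± 0.33 (adjusted p = 0.299), AASS by 0.69 ± 0.38 (adjusted p = 0.467) and GLDC by -0.22 ± 0.21 (adjusted p = 0.724). None of the 6 members was called, where 0.532% of genes were, and 1734 genes and 2 members (PRODH and IDO1) had an unadjusted p under 0.05. PRODH was called over days 5 to 7 (1.49, adjusted p = 0.0175), with array weights (1.49, adjusted p = 0.00293), and without the OCT4 array of day 4 (adjusted p = 0.0201) or of day 7 (adjusted p = 0.0482). With SOX2 shRNA, both IDO1 (409 on day 0 and 436 on day 7) and AASS (1857 and 1860) ended near where they began, while the control read 542 and 1090 for IDO1 and 2169 and 3991 for AASS.

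Against its own days 0 and 1, the OCT4 arm in H1 was lower in AASS (-3.55 ± 0.38), GLDC (-2.12 ± 0.21) and IDO1, at least 3.88-fold, and higher in AADAT (0.51 ± 0.13), 4 of 6 members where 41.7% of genes were called. AADAT was lost without day 0 (0.38) and as a mean over its probes (0.23). PRODH changed by -0.88 ± 0.39 and was not called, but was over days 5 to 7 (-1.33), with array weights (-1.01) and without its own day 4 array (-1.33).

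H9 cells with the same hairpin shared the fall of IDO1 and GLDC. H9 IDO1 read 662, 358, 255, 221, 232, 211, 140 and 143 on days 0 to 7, above background on 6 of 8 arrays. It fell by 1.79 on the log2 scale (SE 0.33, adjusted p = 0.00013, limma), a size that is partly a limit, since days 6 and 7 were below background. H9 GLDC read 1820, 1701, 1709, 1264, 1087, 866, 941 and 813 and fell by 0.97 (SE 0.21, adjusted p = 0.000612). In both genes every late H9 array was below both early ones. As H9 had no control arm, the parts of the hairpin and of culture in these falls cannot be told apart.

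H9 cells differed from H1 cells in AASS and PRODH. H9 AASS read 1388, 1040, 1075, 1326, 1630, 1576, 713 and 501, a change of -0.32 ± 0.38 that was not called (adjusted p = 0.59, limma). Of the late days, only days 6 and 7 were below both day 0 and day 1. H9 PRODH read 932, 561, 672, 800, 2311, 1945, 1396 and 950, with its peak on day 4 at 2.55-fold over day 0 and a return to 1.01-fold by day 7. PRODH rose by 1.17 ± 0.39 over the late days (adjusted p = 0.0253, limma), the third member called of 6, where 26.8% of genes were called. That call was lost without day 1 (0.77, adjusted p = 0.364), without day 5 (1.06, adjusted p = 0.0949) or without the H9 array of day 4 (0.97, adjusted p = 0.072) or day 5 (1.06, adjusted p = 0.0639). With no H9 control arm, a rise that the hairpin caused and one that culture brings cannot be told apart. H9 AADAT read 425 to 572, above the 257 to 312 of the H1 control, and changed by -0.12 ± 0.13 (adjusted p = 0.543).

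The change over days was compared between the lines in one fit. It was higher in H9 than in H1 by 3.23 ± 0.54 for AASS on the log2 scale, by 2.05 ± 0.56 for PRODH and by 1.15 ± 0.29 for GLDC, and lower by 0.63 for AADAT (-0.63 ± 0.18). These are 4 of 6 members, where 28.3% of genes were called. For IDO1 the difference was 0.64 ± 0.47, with the H1 late level known only as a limit, so a difference of either sign or none fits its error. POU5F1 itself changed by -2.37 in H9 and -4.86 in H1, and the lines differed by 2.49 ± 0.46 (adjusted p = 0.000106, limma). SOX2 changed by 1.29 in H9 and by -2.97 in H1, and the lines differed in it by 4.26 ± 0.45. NANOG changed by -2.23 in H9 and by -2.31 in H1, a difference of 0.08 ± 0.32 that was not called. Its late H1 readings, 129 to 168, lay around background. The parts of the weaker knockdown and of SOX2 in the other differences were not tested. Without day 1 the PRODH (1.53) and GLDC (1.11) differences were lost, and without day 0 those of GLDC (1.18) and AADAT (-0.51). AADAT was also lost as a mean over probes (-0.35). In the H9 columns the values of IDO1, PRODH and KYNU rest on a realignment of rows, and those of AASS, GLDC and AADAT do not.

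**Figure D3:**
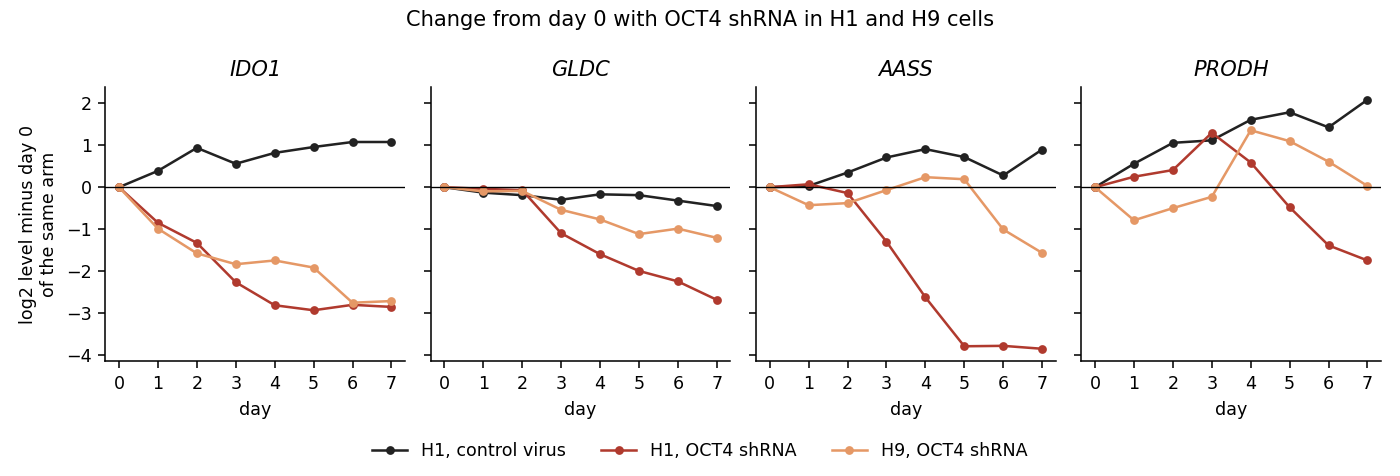
Log2 level minus day 0 of the same arm, by day, for the H1 control and for OCT4 shRNA in H1 and H9 cells, 1 array per point. IDO1 ran down in both lines, while AASS on day 5 lay at -3.80 in H1 and at 0.19 in H9, and PRODH peaked on day 3 in H1 and on day 4 in H9.

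Other genes of the same pathways were read from lists. Genes named from the lists, here and below, were picked for the largest calls of at least 2-fold on the late days. Their p-values in those contrasts were bound to be small and are descriptions, not tests. Of 14 further genes of the kynurenine pathway and other tryptophan use, 7 were measured. With OCT4 shRNA 2 of these were called lower and 0 higher, where 24.2% of all genes were called lower and 23.7% higher. The strongest was KYAT1, a kynurenine aminotransferase, at 218 to 252 against 477 to 678 (-1.50 ± 0.14, adjusted p = 9.74e-11, limma). None was called with NANOG or SOX2 shRNA. Of 8 measured genes of interferon gamma signalling and other regulators of IDO1, of 12 listed, 3 were called lower and 2 higher with OCT4 shRNA, where 24.2% and 23.7% of all genes were. SOCS1, which restrains interferon signalling, read 200 to 270 with OCT4 shRNA and 269 to 286 with NANOG shRNA against 371 to 651 in the control (-1.47 ± 0.17 and -1.04 ± 0.19, adjusted p = 2.00e-08 and 0.000182), and fell in H9 by 1.43 (adjusted p = 8.04e-06). With SOX2 shRNA SOCS1 read 651 to 882 (0.52 ± 0.17, adjusted p = 0.0605), while IDO1 was lower there, so both genes did not move together in each arm. Of 5 measured genes around the aryl hydrocarbon receptor, which binds kynurenine, 2 were called higher with OCT4 shRNA (23.7% of all genes) and 0 with the other hairpins.

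In lysine breakdown, 11 of 11 further genes were measured, and with OCT4 shRNA 5 were called lower and 3 higher (24.2% and 23.7% of all genes), a median of -0.32 against -4.46 for AASS. PIPOX, which oxidises pipecolate in the other lysine route, read 117 to 135 with OCT4 shRNA, below background on 4 of 4 arrays, against 277 to 323, at least 2.59-fold lower (adjusted p = 6.29e-11, limma). It read 179 to 233 with SOX2 shRNA (-0.70 ± 0.16, adjusted p = 0.00338) and showed no call in H9 (-0.19, adjusted p = 0.525). In proline metabolism, 6 of 9 further genes were measured, 4 called lower and 1 higher with OCT4 shRNA, against the same shares. The largest was PYCR1, which works in the opposite direction and makes proline, at 406 to 631 against 943 to 1139 (-1.14 ± 0.14, adjusted p = 5.82e-08). With SOX2 shRNA, where PRODH was 3.76-fold lower, no further proline gene was called.

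The genes around glycine and one-carbon units were mostly lower with OCT4 shRNA, as GLDC was. Of 14 measured of 19 listed, 11 were called lower and 0 higher with OCT4 shRNA, against 24.2% of all genes called lower and 23.7% higher, and the median was -0.56 against 0.0 for all genes. GCSH, the carrier protein of the glycine cleavage system, read 793 to 1099 against 2317 to 2716 (-1.45 ± 0.11, adjusted p = 4.49e-12, limma). The mitochondrial folate enzymes MTHFD2 (-1.79 ± 0.18) and SHMT2 (-1.22 ± 0.12) and the serine synthesis enzyme PSAT1 (-1.71 ± 0.15) were each called. NANOG shRNA gave 2 calls in each direction, and PSAT1 was higher there, 4053 to 5091 against 2514 to 3601 (0.69 ± 0.16, adjusted p = 0.00261). In H9, where 26.8% of all genes were called, 7 of the 14 fell and 1 rose. PSAT1 (-1.05), MTHFD2 (-0.86) and SHMT2 (-0.65) were among those that fell, while GCSH did not pass (0.15, adjusted p = 0.471, limma). In the H1 control over the same days, 2 of the 14 were called lower and 0 higher, where 0.532% of all genes were called. With no H9 control arm, falls from the hairpin and from culture cannot be told apart.

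Of carriers that bring these amino acids into cells, 12 of 15 listed were measured, and 3 were called lower and 5 higher with OCT4 shRNA, where 24.2% and 23.7% of all genes were. SLC7A3, a carrier of lysine and arginine, read 183 to 879 against 2472 to 3185 (-3.48 ± 0.32, adjusted p = 9.27e-11, limma), and was not called with NANOG shRNA (-0.40) or SOX2 shRNA (0.13). SLC16A10, a carrier of tryptophan and other aromatic amino acids, was lower with both OCT4 (-1.67 ± 0.17) and NANOG shRNA (-1.41 ± 0.18, adjusted p = 1.46e-06). SLC7A8, a carrier of neutral amino acids, was called in opposite directions, -1.95 ± 0.19 with OCT4 shRNA and 0.80 ± 0.20 with NANOG shRNA, as was SLC7A2, another carrier of lysine and arginine, at 0.72 ± 0.20 and -1.11 ± 0.22. With SOX2 shRNA 0 of 12 carriers were called. Of 15 measured genes for branched-chain amino acids 6 were called lower and 1 higher with OCT4 shRNA, with none past 2-fold, and of 13 for the remaining amino acids 3 lower and 2 higher, against 47.8% of all genes called in either direction. The one past 2-fold was ODC1, which turns ornithine into putrescine, higher with OCT4 shRNA (1.47 ± 0.20) and NANOG shRNA (1.36 ± 0.21, adjusted p = 2.84e-05).

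**Figure D4:**
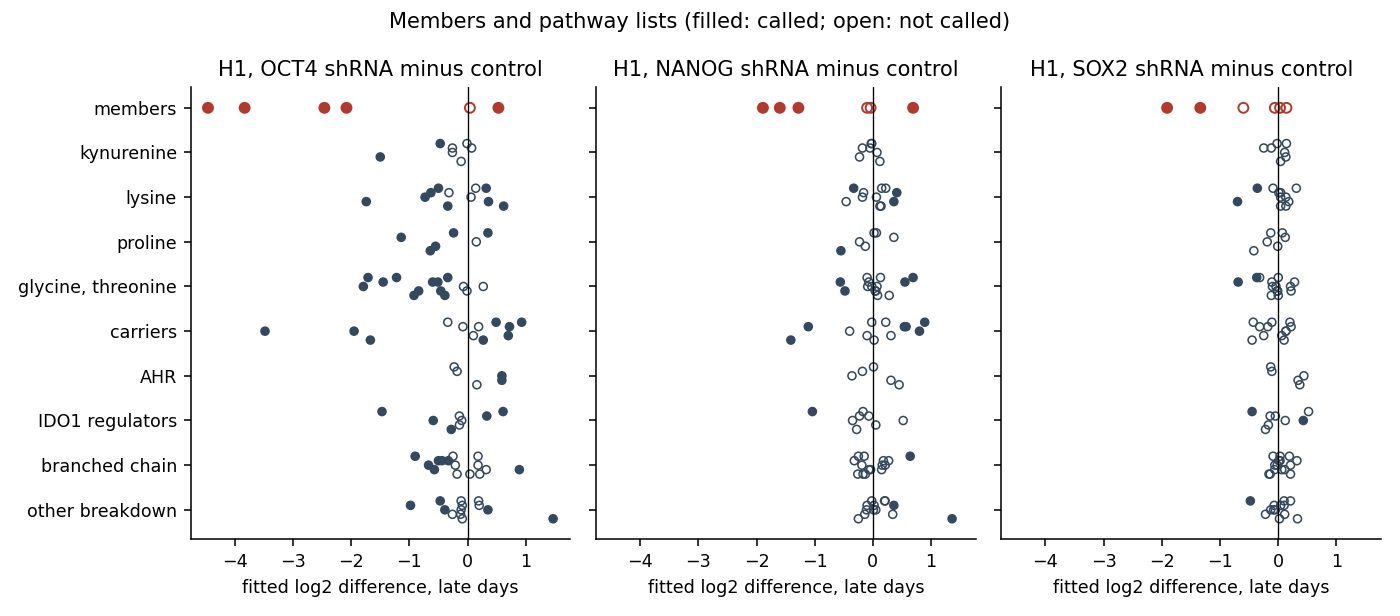
Fitted log2 difference from control on the late days for the 6 measured members and the measured genes of 9 related lists. Each point is 1 gene, filled where called (adjusted p under 0.05). The points of IDO1 and PIPOX with OCT4 shRNA are fitted values below background, not measured sizes. Those of KYNU and of some listed genes also rest on readings near or below background. With OCT4 shRNA the members reached -4.46 and the glycine and threonine list had 11 of 14 genes called lower, while with SOX2 shRNA nearly all points of the lists were open and near 0.

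Among the members, levels over the 31 H1 arrays ran closest for AASS and GLDC (Pearson r = 0.92) and for IDO1 and AASS (r = 0.90), while PRODH ran less closely with AASS (r = 0.55), IDO1 (r = 0.54) and GLDC (r = 0.38). Over the 8 H9 arrays the closest pair was IDO1 and GLDC (r = 0.84), AASS and GLDC stood at 0.37, and PRODH and GLDC at -0.65. All points of a line share the time courses and the knockdowns, so these are descriptions of the arrays without a test.

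The genes whose course over the H1 arrays was most like each member's were, for AASS, PHC1 (r = 0.98), HLTF (0.97) and DPPA4 (0.97), with 0.69, 0.85 and 0.62 in H9. For IDO1 they were CFAP95 (0.94), CXCL6 (0.93) and USP44 (0.92), with 0.90, 0.76 and 0.83 in H9. For GLDC they were PTPRZ1, CAMKV and NELL2 (0.97 each), with 0.62, 0.82 and 0.48 in H9. PRODH was most like MTA3 (0.90 in H1 and 0.95 in H9), followed by UPK1A (0.87 and 0.72) and SGSM1 (0.86 and 0.82). For AADAT the H1 likeness to RHBDD2 (0.88), PAM (0.86) and SKP2 (0.86) did not carry to H9, where r was -0.62, -0.43 and 0.04. KYNU, at background, reached 0.61 with CRHR1 and less with every other gene.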

How the data were processed

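RNA was hybridised to 1-colour Illumina bead arrays. The intensities deposited by the authors are on a linear scale and already share one distribution (column medians 135.6 to 135.7), with no background subtracted. Names come from the platform annotation (30113 probes with 1 symbol, 8 with several, 17202 with none). A further deposited table of non-normalized intensities has 80 value columns whose names match no label, and only its probe order was used. In that order, H9 values after row 13056 sit 2 rows early: their correlation with H1 was 0.982 before the break, 0.221 after it, and 0.986 once moved. The 30 probes around the break were left out.

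Values were corrected with normexp (offset 50) and put on a log2 scale. A probe passed when over 145 on at least 4 arrays (24940 probes), and a gene took its passing probe with the highest mean (3740 genes had several). limma 3.58.1 in R 4.3.3 was fitted to arm by window over 39 arrays, with Benjamini-Hochberg adjustment over 13544 genes, and was tested on simulated data. The members and all gene lists were chosen with earlier results of these data known, so members' contrasts that contain the late H1 knockdown arrays are given without p-values, as descriptions. Other p-values of members and of listed genes are printed, but are descriptions as well. Genes named beside the members are the targeted genes, up to 4 genes of each list with the largest calls of at least 2-fold, and the 3 genes most alike each member. In the labels a shared sample number marks the day. Deviations of same-day arrays correlated above 0.1 in 33 of 56 pairs (58.9%, median 0.127), and a fit with day as a block was an alternative for comparisons between arms. Alternatives also covered the correction, offset, filter, probe choice, normalization, array weights, window, H1 arrays alone, and each day or late array left out.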

Additional observations from a re-analysis of the deposited data

Results flagged for a closer look

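Of 24 groups of 4 late arrays examined (6 genes in 4 arms), 2 held an array far from the other 3, where chance gives about 1 in 20. With OCT4 shRNA in H1, AASS on day 4 had a log2 level of 8.18, and its gap to the next array was 0.943 of the group's range: AASS was still on its way down that day and level on days 5 to 7. With OCT4 shRNA in H9, KYNU on day 7 had a log2 level of 6.61, with a gap of 0.943 of the range, at a reading of 148 against the background level of 145.

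For 4 genes the change over days with OCT4 shRNA differed between H9 and H1 past limma's adjusted threshold. The H1 side holds arrays whose values were known when the genes were chosen. The log2 difference was 3.23 for AASS, 2.05 for PRODH, 1.15 for GLDC and -0.63 for AADAT. Those of PRODH, GLDC and AADAT were no longer called on leaving out day 0 or day 1, as given above.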

How the results depend on the processing

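No result changed direction past the threshold. Over 78 differences of members and up to 37 alternatives each, 2764 of 2819 values kept their side of the threshold, and 60 of the 78 did so in every alternative, among them all 6 members with OCT4 shRNA on the late days. Array weights moved the number of genes called from 2069 to 4748 for NANOG shRNA and from 1112 to 2285 for SOX2 shRNA on the late days, from 2433 to 4917 for NANOG against SOX2 shRNA (members from 2 to 4), from 531 to 1913 and from 55 to 353 (members 0 to 1) for NANOG and SOX2 shRNA on days 2 and 3, and from 72 to 376 (members 0 to 1) for the control's change. An offset of 16 gave 39 genes for the control's change, and 1 member each for NANOG against SOX2 shRNA and for OCT4 shRNA on days 2 and 3, where no filter also gave 1. With days 5 to 7 as the late window the control's change had 173 genes and 1 member called.

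With day as a replicate block, the count went to 813 for NANOG shRNA and to 85 for SOX2 shRNA (members 0 to 1) on days 2 and 3, and no other call of a member changed. Changes within an arm over days cannot be blocked by day.

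Leaving out a day or late array gave 906 to 2254 genes for NANOG shRNA and 492 to 1263 for SOX2 shRNA on the late days, each lowest without day 5, and 1317 to 2621 (1 to 3 members) between them. On days 2 and 3 it gave 10 to 915 (0 to 3 members) with OCT4 shRNA, 14 to 731 with NANOG shRNA and 1 to 74 (0 to 1 member) with SOX2 shRNA, each lowest without day 3. It gave 1969 to 3919 for the H9 change, 10 to 173 (0 to 1 member) for the control's change and 1790 to 4274 (2 to 4 members) for H9 against H1, lowest without day 0, day 1 and day 0. Where a window was left with 1 array, that array was assumed to vary like the others. The causes were not tested. The number of arrays limits precision, and readings near 145 are limits only: IDO1 late after OCT4 knockdown, KYNU throughout.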
